A study of Mus musculus with 2 samples.

Results

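The cell cycle list held 42 genes that are transcribed when a cell copies its DNA and divides, among 32285 genes in each of 2 single-cell libraries. The genes were chosen by symbol, and all 42 were found in both libraries. A cell was called cycling when 3 or more of its transcripts came from the list. The share of such cells was described for each cell type, hashtag group and library, and then the genes themselves.

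A cell that divides passes through G1, in which it grows, S phase, in which replication origins fire and the DNA is copied, G2, and mitosis, in which the chromosomes are parted. Genes of the G1/S wave (origin licensing factors, replication fork proteins and enzymes of deoxynucleotide synthesis) are transcribed under E2F factors. Genes of the G2/M wave (cyclin B, mitotic kinases, kinetochore and spindle proteins) are transcribed later, through complexes of MuvB with B-MYB and FOXM1. In the granulocyte lineage, progenitors and early immature neutrophils divide, whereas mature neutrophils have left the cycle for good.

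The samples came from female BALB/cAnNCrl mice that carried liver metastases of 4T1, a mouse mammary carcinoma line, seeded through the spleen. Every group, the vehicle included, bore tumors and had an infusion through the hepatic artery. CBL0137 is a curaxin, a small molecule that binds DNA and loosens its wrapping around histones. Cells of 2 mice were pooled in each group 5 days after treatment, stained with hashtags (antibodies carrying an oligonucleotide) and loaded together. Hashtag A0301 marked the vehicle, A0305 a low dose and A0310 a high dose. No source used here gives the doses. CD11b beads were used for isolation according to the methods, whereas the labels describe leukocytes from a density gradient, and both libraries held T cell-like as well as B cell-like cells. Each group was 1 pooled sample per library, so no p-value was computed, cells were not treated as replicates, and every interval below is a 95% interval of counting error only.

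The tissue labels of the libraries went against their markers. The liver-labelled library had 43.9 CPM (UMIs per 1000000 UMIs, where a UMI stands for 1 captured transcript, so that levels are not scaled to gene length) of hepatocyte markers, 107 of macrophage markers and 39.1 of endothelial markers. The spleen-labelled library had 115, 2398 and 417 CPM of the same lists. Endothelial cell-like and epithelial-like classes, and a macrophage-like cluster led by Marco and Clec4f, were found in the spleen-labelled library only. Each library is called here by its label, which may not be its tissue, and the tissue of origin was not settled. A difference between the libraries is therefore not to be read as one between the tissues of their labels. The liver-labelled library had 3103 vehicle, 3194 low dose and 2138 high dose cells with 1 hashtag, at a median of 4497, 4663 and 4794 UMIs. The spleen-labelled library had 822, 1301 and 865 such cells, at 5108, 4694 and 7930 UMIs. A further 1627 barcodes of the spleen-labelled library had no hashtag call, 1425 of them with the high dose hashtag leading. The libraries shared 15 barcodes.

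The members fall into 6 roles. Origin licensing and the replication fork was represented by Pcna (the sliding clamp), the 6 helicase subunits Mcm2 to Mcm7, Gins2 (a helicase cofactor) and the loading factors Cdc6 and Cdt1. Pcna had the most UMIs of these, 5362 in the liver-labelled library and 3469 in the spleen-labelled library. Deoxynucleotide synthesis was represented by the ribonucleotide reductase subunits Rrm1 and Rrm2, thymidylate synthase (Tyms) and thymidine kinase (Tk1), with 6343 and 3478 UMIs of Rrm2. The cyclins Ccna2, Ccnb1, Ccnb2, Ccne1 and Ccne2 came with the kinase Cdk1. Mitotic kinases, the spindle checkpoint and the anaphase-promoting complex (APC/C) were represented by Aurka, Aurkb, Plk1, Bub1, Bub1b, Cdc20, Birc5 and Ube2c, the last of which is the APC/C ubiquitin-conjugating enzyme and had 8951 and 6483 UMIs. Centromere and spindle genes were Cenpa, Cenpe, Cenpf, Kif11, Kif23, Tpx2, Prc1, Nusap1 and Stmn1 (stathmin, which destabilises microtubules). Chromosome structure genes were Mki67, the gene of the Ki-67 antigen, Top2a (topoisomerase II alpha), the condensin subunits Smc2 and Smc4, and Hmgb2, a DNA-bending protein.

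Hmgb2 outweighed the rest of the list. It held 41.8% of all list UMIs in the liver-labelled library and 30.6% in the spleen-labelled library. In mature neutrophil-like cells, which do not divide, it held 87.6% and 87.1%. Hmgb2 had a UMI in 68.9% of all cells in the liver-labelled library, against 10.1% for Mki67 and 8.83% for Top2a. Stmn1 is also known from cells outside the cycle, and it held 4.10% and 3.82% of the list UMIs. Shares are therefore also given without Hmgb2 and Stmn1.

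The promoters shown are those of the 2 members with most UMIs in each wave, Rrm2 (chr12:24708004-24708303, plus strand) and Pcna (chr2:132253131-132253430, minus strand) for G1/S, and of Ube2c (chr2:164769679-164769978, plus strand) and Top2a (chr11:99024140-99024439, minus strand) for G2/M. Each is 250 bases before and 50 after a RefSeq start on GRCm38.p6, 5′ to 3′ on the strand of the gene, with matches to the motifs below in capitals.
Rrm2: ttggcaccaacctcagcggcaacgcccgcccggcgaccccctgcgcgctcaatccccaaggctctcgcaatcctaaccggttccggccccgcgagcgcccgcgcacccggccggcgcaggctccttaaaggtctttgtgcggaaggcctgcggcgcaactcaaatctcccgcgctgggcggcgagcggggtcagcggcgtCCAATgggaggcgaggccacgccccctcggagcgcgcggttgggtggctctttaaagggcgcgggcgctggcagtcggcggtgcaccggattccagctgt
Pcna: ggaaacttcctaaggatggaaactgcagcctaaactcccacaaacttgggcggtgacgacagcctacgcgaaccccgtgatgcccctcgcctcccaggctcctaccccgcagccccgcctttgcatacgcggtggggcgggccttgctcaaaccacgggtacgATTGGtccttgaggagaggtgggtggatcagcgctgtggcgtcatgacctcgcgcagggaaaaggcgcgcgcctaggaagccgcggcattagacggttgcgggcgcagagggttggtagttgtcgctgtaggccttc
Ube2c: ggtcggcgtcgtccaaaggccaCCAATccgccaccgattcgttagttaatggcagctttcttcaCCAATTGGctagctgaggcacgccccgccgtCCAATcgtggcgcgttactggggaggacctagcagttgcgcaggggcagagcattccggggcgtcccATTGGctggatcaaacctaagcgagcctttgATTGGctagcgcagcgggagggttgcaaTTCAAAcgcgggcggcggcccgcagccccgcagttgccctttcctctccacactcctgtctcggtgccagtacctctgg
Top2a: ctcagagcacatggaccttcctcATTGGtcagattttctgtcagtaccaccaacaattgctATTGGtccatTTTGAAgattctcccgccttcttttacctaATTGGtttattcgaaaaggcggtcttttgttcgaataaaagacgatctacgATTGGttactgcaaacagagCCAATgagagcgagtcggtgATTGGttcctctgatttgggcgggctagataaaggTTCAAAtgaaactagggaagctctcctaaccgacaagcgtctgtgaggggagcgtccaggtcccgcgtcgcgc

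Both G2/M promoters hold the cell cycle genes homology region (CHR, TTTGAA or its reverse complement TTCAAA), the element bound by MuvB complexes. In Ube2c it begins 29 bases before the start. In Top2a a match begins 23 bases before the start and another 179 bases before it. Each of these promoters also holds 6 matches to the CCAAT box (CCAAT or ATTGG), 2 of which overlap in Ube2c, and neither G1/S promoter holds a CHR or an E2F match.

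Across the list, 34 of 42 members had a promoter record. The CHR was found in 14 of 19 G2/M members (73.7%, exact interval 48.8 to 90.9), in 1 of 13 G1/S members (7.69%) and in 18.1% of all 27025 promoters of the same length. The G1/S member with a CHR was Mcm2. CCAAT was found in 17 of 19 G2/M members, in 8 of 13 G1/S members and in 37.9% of all promoters. E2F sites, searched on both strands as TTTCCCGC, TTTCGCGC, TTTGCCGC or TTTGGCGC, were found in 6 of 13 G1/S members (46.2%, exact interval 19.2 to 74.9), in 1 of 19 G2/M members and in 2.32% of all promoters. The G1/S members with an E2F match were Cdc6, Cdt1, Mcm3, Mcm5, Mcm6 and Mcm7, and the G2/M member was Cdk1. A match describes these windows only, and binding was not measured.

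Cycling cells were most frequent in the granulocyte progenitor-like class. To compare cells of unequal depth, each cell was thinned at random to 1000 UMIs, which left out 481 of 8435 cells in the liver-labelled library and 142 of 2988 in the spleen-labelled library. Of granulocyte progenitor-like cells (Elane, Ctsg, Mpo), 79.5% (73.6 to 84.6) were cycling in the liver-labelled library and 82.4% (74.9 to 88.4) in the spleen-labelled library. In the liver-labelled library the leading genes of this class also included the hemoglobin genes Hbb-bs and Hba-a1. Immature neutrophil-like cells (Camp, Ltf, Ngp) had 40.2% and 45.2%, and monocyte-like cells 29.4% and 27.4%. In the spleen-labelled library, 33 of 60 epithelial-like cells (Krt8, Krt18 and Krt19, of 4T1 tumor cells or cholangiocytes) were cycling, 55.0% (41.6 to 67.9). This placed them after the progenitor-like cells there, with an interval that overlapped that of the immature neutrophil-like cells. All 33 came from treated mice, with 9 of 13 cells cycling at the low dose and 24 of 41 at the high dose. In the vehicle 0 of 6 were cycling, too few cells for a comparison.

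Mature neutrophil-like cells gave the background of the measure, with 19.5% cycling in the liver-labelled library and 11.6% in the spleen-labelled library, at median depths of 3990 and 3183 UMIs. Without Hmgb2 and Stmn1 these shares were 0.454% and 0.441%. Against the full list, 3 of 9 other classes in the liver-labelled library and 5 of 9 in the spleen-labelled library had a share whose interval lay above that of mature neutrophil-like cells. A share at or below theirs, such as 8.06% of T cell-like, 5.62% of B cell-like and 6.50% of macrophage-like cells in the liver-labelled library, was not above the background of the full list. Without Hmgb2 and Stmn1, T cell-like cells had 4.93%, B cell-like cells 3.38% and macrophage-like cells 4.88%, and 9 of 9 classes of the liver-labelled library lay above mature neutrophil-like cells. The order of the leading classes stayed, with granulocyte progenitor-like cells at 67.0% and 64.7%, whereas immature neutrophil-like cells (21.5%) and monocyte-like cells (22.7%) of the liver-labelled library changed places within their intervals.

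**Figure D1:**
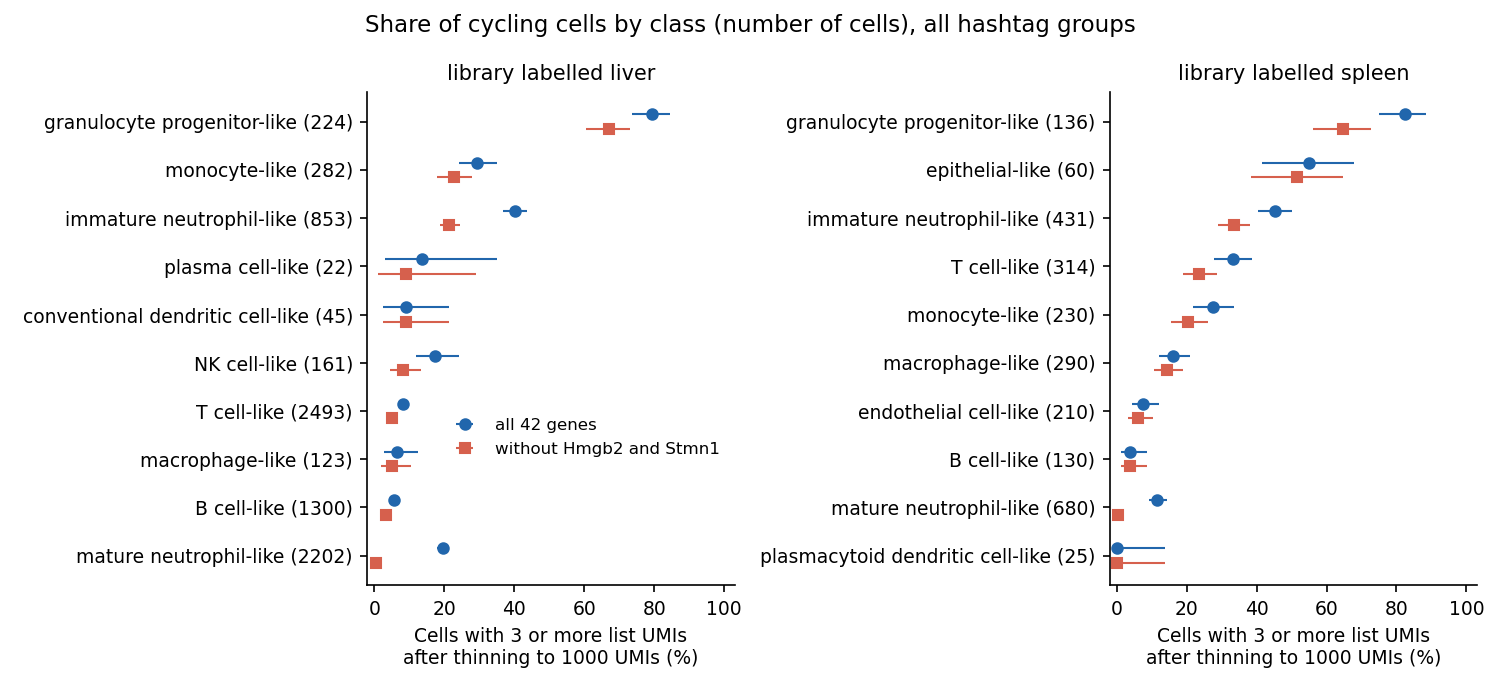
Share of cycling cells by class, all hashtag groups of a library together, after thinning to 1000 UMIs, with the number of thinned cells in brackets and exact 95% intervals of counting error. Circles use all 42 genes and squares leave out Hmgb2 and Stmn1, without which mature neutrophil-like cells fell from 19.5% to 0.454% in the liver-labelled library and from 11.6% to 0.441% in the spleen-labelled library.

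T cell-like cells differed between the libraries. They were cycling in 33.1% (27.9 to 38.6) of 314 cells in the spleen-labelled library and in 8.06% (7.02 to 9.20) of 2493 cells in the liver-labelled library, and the intervals did not overlap. Without Hmgb2 and Stmn1 the shares were 23.6% and 4.93%. Macrophage-like cells had 16.2% (12.2 to 21.0) in the spleen-labelled library against 6.50% (2.85 to 12.4) in the liver-labelled library. B cell-like cells had 3.85% and 5.62%, and 7.62% of endothelial cell-like cells were cycling in the spleen-labelled library. None of 25 plasmacytoid dendritic cell-like cells was cycling, which allows a share of up to 12.0% at a limit of 3 counts, or of 13.7% by the exact interval. At full depth the deeper classes had the larger shares, so that 99.5% of immature neutrophil-like cells of the liver-labelled library, with a median of 21289 UMIs, had 3 or more list UMIs, against 37.4% of B cell-like cells with a median of 3360.

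By number with the full list, over all groups together, neutrophil-line cells made up most of the cells called cycling, the mature background class included. Of 1414 in the liver-labelled library, 30.3% were mature neutrophil-like, 24.3% immature neutrophil-like, 14.2% T cell-like and 12.6% granulocyte progenitor-like, although the last class was 2.82% of all thinned cells. Of 691 in the spleen-labelled library, 28.2% were immature neutrophil-like, 16.2% granulocyte progenitor-like, 15.1% T cell-like and 11.4% mature neutrophil-like. Without Hmgb2 and Stmn1, mature neutrophil-like cells were 10 of 645 cycling cells in the liver-labelled library and 3 of 476 in the spleen-labelled library. The makeup differed by group. T cell-like cells were 7.67%, 11.5% and 32.6% of the cycling cells in the vehicle, low dose and high dose groups of the liver-labelled library and 4.52%, 11.1% and 30.2% in the spleen-labelled library, so that they were the largest class at the high dose of both. Of all thinned cells they were 19.9%, 28.7% and 53.2%, and 5.50%, 8.43% and 19.8%. Mature neutrophil-like cells were 39.0%, 34.0% and 5.90% of the cycling cells, and 12.6%, 17.1% and 2.83%.

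Cells called cycling by the list also carried more of the cell cycle genes outside it. All 34 other DNA replication genes and all 62 other genes of mitosis were higher in cycling than in other cells of both libraries, with summed levels 2.60 and 2.85 higher on the log2 scale in the liver-labelled library and 2.59 and 2.66 in the spleen-labelled library. Among those with most UMIs, Pclaf (a PCNA partner) was at 442 against 11.9 CPM and the linker histone gene Hist1h1b at 723 against 5.25 CPM in the liver-labelled library. Of 22 regulators of entry, 19 were higher and 3 lower there, and their summed level was 0.49 higher on the log2 scale. The D-type cyclin gene Ccnd2 was 1 of the 3, with 50 against 190 CPM. Of 8 kinase inhibitors, which hold cells out of S phase, 5 were higher and 2 lower, with a summed level 0.51 higher. Cdkn3, a phosphatase of mitotic cells listed with them, was at 119 against 7.14 CPM, and Cdkn1b (p27), 1 of the 2 that were lower, at 69.1 against 133 CPM. Over a whole library these levels also compare classes. In the liver-labelled library T cell-like cells were 14.2% of cycling and 31.3% of all thinned cells, and granulocyte progenitor-like cells 12.6% and 2.82%. The part of the classes was not tested. The share of all genes higher in cycling cells was not computed, over a library or within a class. Cycling cells were also the deeper ones, with a median of 10644.5 against 4675.5 UMIs in the liver-labelled library and 17364 against 4720 in the spleen-labelled library. Within immature neutrophil-like cells of the liver-labelled library, 31 of 32 replication genes tested and 62 of 62 mitosis genes were higher. The cycling T cell-like cells of that library had 34 of 34 and 62 of 62 higher, with summed levels 2.48 and 2.79 higher, and its cycling B cell-like cells 32 of 33 and 59 of 59.

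Mature neutrophil-like cells called cycling did not carry this set. Only 3 of 23 replication genes and 9 of 35 mitosis genes tested were higher in them than in other mature neutrophil-like cells of the liver-labelled library, and the summed levels differed by 0.17 and 0.30 on the log2 scale. The spleen-labelled library gave 1 of 11 and 1 of 18. The share of all genes higher in these cells was not computed. Their median depth was 3523 UMIs against 4231 for the other mature neutrophil-like cells.

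The share of cycling cells over a whole library depended on the genes that defined it. In the liver-labelled library, 19.6% of vehicle cells, 17.8% of low dose cells and 14.9% of high dose cells were cycling. The high dose was lower than the vehicle by 4.73 percentage points (−6.87 to −2.55), a difference of −4.73, and the low dose differed by −1.75 (−3.74 to 0.250). Without Hmgb2 and Stmn1 the direction at the high dose reversed, with 7.78% against 9.96%, or 2.18 points higher (0.533 to 3.88). With other cell cycle genes in place of the list it was 3.26 points higher. Hmgb2 itself was at 1641 CPM in the vehicle, 1473 at the low dose and 1286 at the high dose, a log2 ratio of −0.35 at the high dose, and the mature neutrophil-like class, where it is the main list transcript, made up 38.3%, 30.8% and 6.35% of thinned cells. With the class makeup of the vehicle held fixed, the shares were 19.6%, 18.5% and 17.7%.

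The spleen-labelled library had a cycling share of 26.1% in the vehicle, 22.7% at the low dose and 25.0% at the high dose. The differences of −3.39 (−7.39 to 0.542) and −1.11 points (−5.47 to 3.23) both included 0. Without Hmgb2 and Stmn1 the shares were 17.8%, 14.3% and 19.2%, and the low dose was lower by 3.48 points, a difference of −3.48 (−6.96 to −0.109). At full depth the shares were 64.8%, 64.9% and 71.3%, beside median depths of 5108, 4694 and 7930 UMIs.

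With the full list, the share of cycling immature neutrophil-like cells was lower at the low dose than in the vehicle in both libraries. In the liver-labelled library the shares were 44.0% in the vehicle, 36.2% at the low dose and 44.3% at the high dose, so that the low dose differed from the vehicle by −7.74 points (−14.9 to −0.536). They were 51.0%, 33.5% and 64.2% in the spleen-labelled library, a difference of −17.5 points (−28.1 to −6.65) at the low dose and of 13.2 (−0.960 to 26.5) at the high dose. Without Hmgb2 and Stmn1, the liver-labelled library gave 21.8%, 18.2% and 34.0%, so that the low dose difference of −3.60 points (−9.58 to 2.29) included 0 and the high dose was 12.2 points higher than the vehicle (1.72 to 23.4). The spleen-labelled library kept a low dose difference of −14.4 points (−24.6 to −4.27) without them. There were 339, 417 and 97 such cells in the liver-labelled library and 147, 203 and 81 in the spleen-labelled library. When cell cycle genes were kept in the clustering, this class of the spleen-labelled library had 144, 178 and 125 cells. Its shares were then 54.2%, 36.0% and 42.4%, so that both doses lay below the vehicle.

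The class held a cycling and a largely non-cycling cluster in each library. In the liver-labelled library, the cluster led by Camp, Ltf and Ngp (early granule genes) had shares of 52.9%, 57.5% and 53.9% in the vehicle, low dose and high dose groups. The cluster led by Retnlg, Ly6g and Mmp8 (late granule and surface genes) had 16.7%, 11% and 9.52%, and 0 cells in each group without Hmgb2 and Stmn1. This later cluster held 24.8% of the class in the vehicle, 45.8% at the low dose and 21.6% at the high dose. Within neither cluster of the liver-labelled library was the low dose share outside the interval of the vehicle. The Camp, Ngp and Cebpe cluster of the spleen-labelled library had 77.9%, 62.8% and 78.7%, and the low dose share lay below the vehicle interval of 67.7 to 86.1, although its own interval (52.2 to 72.5) overlapped it. The later cluster there had 13.1%, 8.26% and 20.0%, and held 41.4%, 53.9% and 24.4% of the class.

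**Figure D2:**
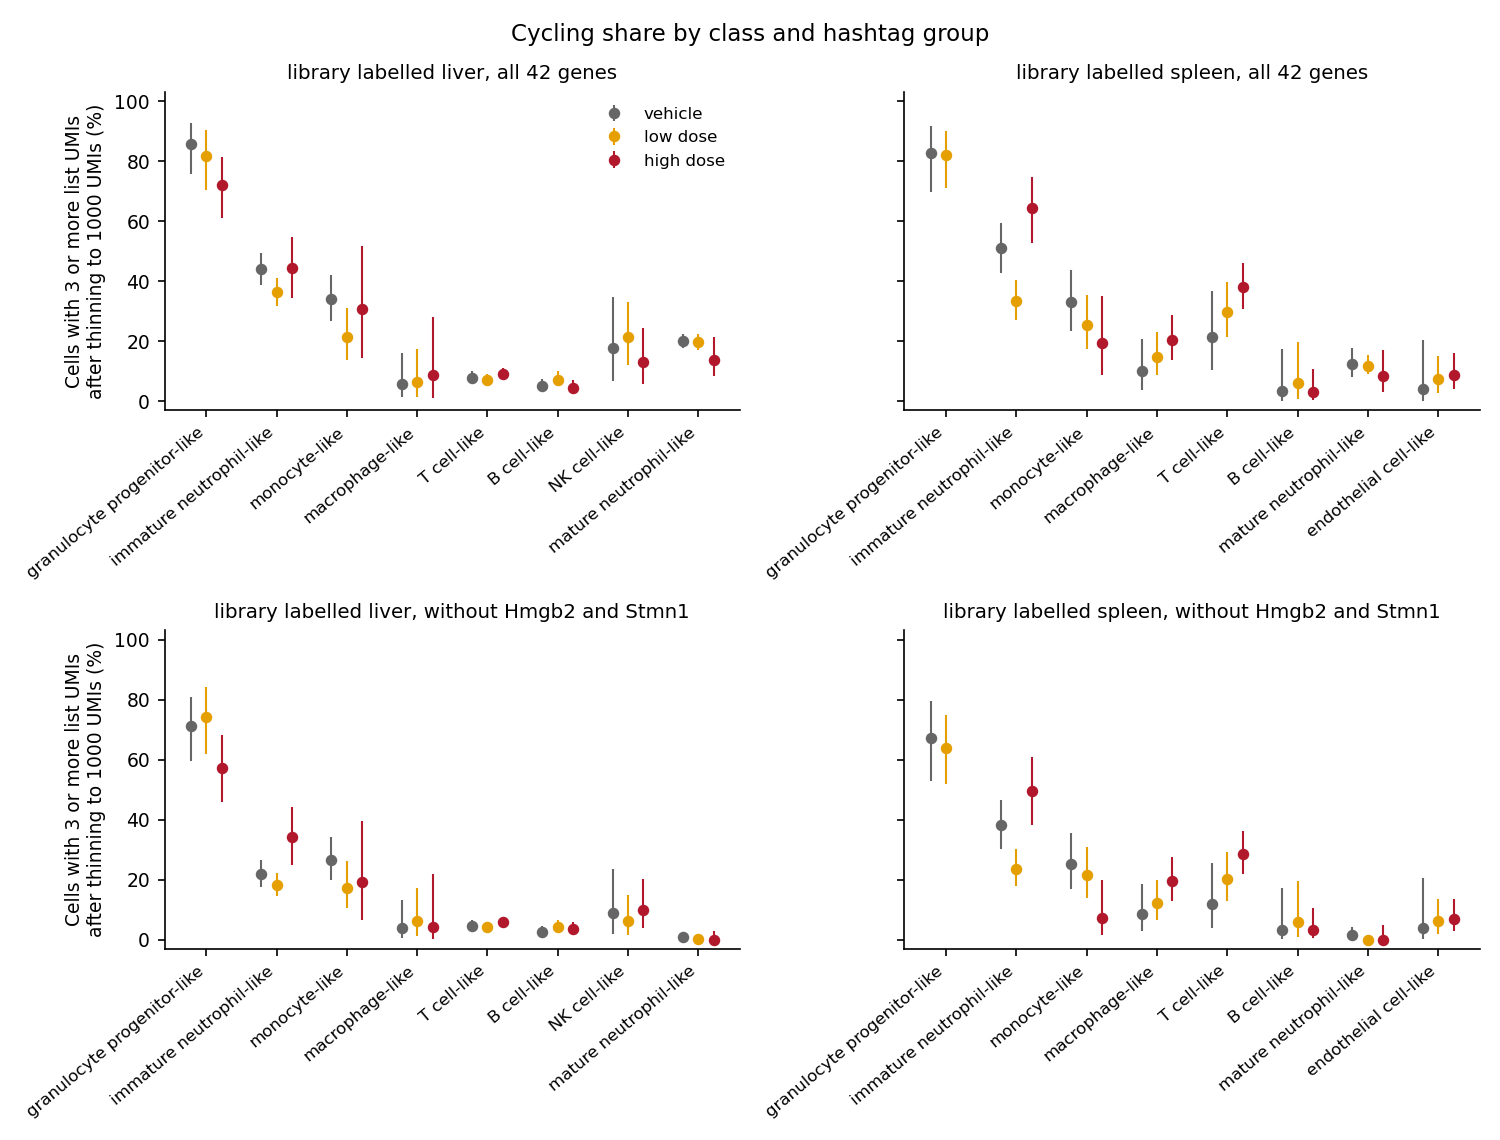
Share of cycling cells by class and hashtag group after thinning to 1000 UMIs, with all 42 genes in the upper panels and without Hmgb2 and Stmn1 in the lower panels. Bars are exact 95% intervals of counting error. In the spleen-labelled library the immature neutrophil-like share was lowest at the low dose, with 33.5% against 51.0% in the vehicle and 64.2% at the high dose.

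Granulocyte progenitor-like cells stayed mostly cycling in every group. The shares were 85.5%, 81.8% and 72.0% in the liver-labelled library, and the high dose difference of −13.6 points (−26.6 to 0.0894) included 0. They were 82.7%, 81.9% and 83.3% in the spleen-labelled library, the last from 12 cells. The cluster also held hemoglobin genes in the library labelled liver. Its erythroid markers summed to 6580, 12017 and 8654 CPM and its granulocyte progenitor markers to 15586, 15689 and 7305 CPM in the vehicle, low dose and high dose groups. At the high dose the erythroid markers thus exceeded those of the class name, and the high dose share is that of a mixed class. At a clustering resolution of 1.6, a granulocyte progenitor-like class of that library was cycling in 97.4%, 96.1% and 100% of 76, 76 and 29 cells. An erythroid-like class had 71.1%, 67.6% and 63.5% of 38, 34 and 63 cells. These were not a split of the main class alone, which had 66 cells at the low dose. The immature neutrophil-like class was smaller at this resolution, with 303, 374 and 87 cells against 339, 417 and 97. At a resolution of 0.4 no class of that library was named granulocyte progenitor-like.

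Monocyte-like cells were cycling less often at the low dose of the liver-labelled library, with 34.2% in the vehicle and 21.4% at the low dose, a difference of −12.7 points (−23.8 to −0.782). The shares without Hmgb2 and Stmn1 were 26.6% and 17.3%, and the difference of −9.24 (−19.5 to 1.96) included 0. The spleen-labelled library had shares of 33.0% and 25.5%, and the difference of −7.46 (−20.9 to 6.2) included 0. The high dose left 26 and 41 such cells, with shares of 30.8% and 19.5%. Macrophage-like cells of the spleen-labelled library had 10.2%, 14.8% and 20.3%, with a high dose difference of 10.2 points (−2.45 to 20.5). Their 59 vehicle cells had a median of 10764 UMIs and their 123 high dose cells 17780 before thinning.

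T cell-like cells of the liver-labelled library kept a low share in every group, with 7.55% in the vehicle (596 cells), 7.16% at the low dose (866 cells) and 9.12% at the high dose (1031 cells). The high dose difference of 1.57 points (−1.38 to 4.34) included 0. Their cycling cells sat mainly in 1 cluster, led by Ikzf2, Ctla4, Icos and Foxp3, the last being the transcription factor of regulatory T cells. It had shares of 25.0%, 25.7% and 23.5%, and 113 of the 201 cycling T cell-like cells. The clusters led by Cd4, Lef1 and Tcf7 (4.10%, 3.01% and 4.49%) and by Cd8a and Cd8b1 (5.19%, 2.64% and 4.6%) were each far below it. The Foxp3 cluster held 14.1%, 17.1% and 22.3% of the class.

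T cell-like shares in the spleen-labelled library were 21.4% of 42 vehicle cells, 29.8% of 104 low dose cells and 38.1% of 168 high dose cells. The vehicle interval (10.3 to 36.8) overlapped that of the high dose (30.7 to 45.9). The cluster led by Cd8a, Gzma and Pdcd1 had 39.0% of 154 cells cycling and the cluster led by Ms4a4b and Il7r had 27.5% of 160.

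**Figure D3:**
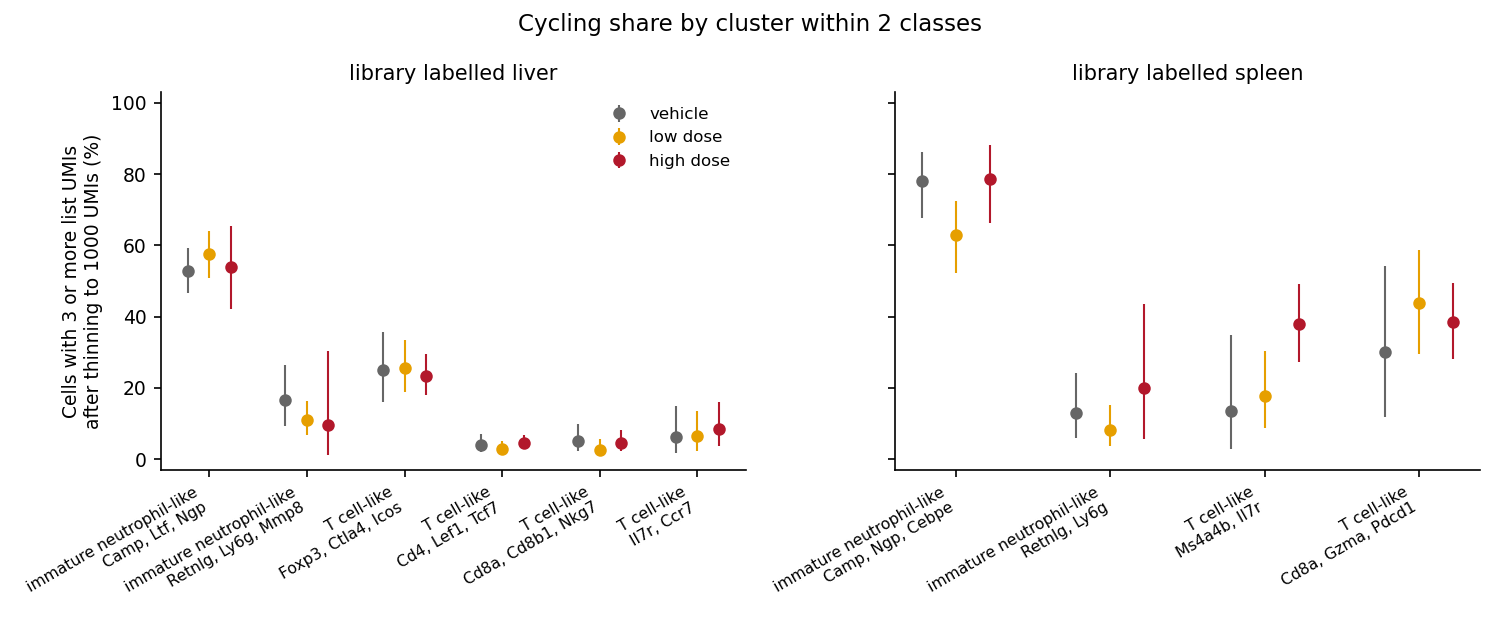
Share of cycling cells by cluster within the immature neutrophil-like and T cell-like classes, by hashtag group, after thinning to 1000 UMIs, with exact 95% intervals of counting error. The Camp clusters lie between 52.9% and 78.7% and the Retnlg clusters between 8.26% and 20.0%, and the Foxp3 cluster lies between 23.5% and 25.7% in all 3 groups.

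Some cells without a class were cycling too. An unnamed cluster of the liver-labelled library led by Irf8, Cst3 and H2-Eb1 (genes of antigen-presenting cells) had 8.33% of 48 vehicle cells, 30% of 40 low dose cells and 52.4% of 63 high dose cells cycling, and 8.33%, 20.0% and 33.3% without Hmgb2 and Stmn1. A B cell-like cluster led by Vpreb3 and Vpreb1, genes of B cell precursors, had 22.9% of 48 cells cycling, and 47 of these cells were from the vehicle.

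The levels of single genes were compared as the ratio of CPM over the summed UMIs of a class, and in such sums fewer cycling cells and less RNA per cell cannot be told apart. Over all cells the ratios also depend on the mix of classes, whose part was not tested. Mature neutrophil-like cells were 38.3% of thinned vehicle and 6.35% of thinned high dose cells of the liver-labelled library, and T cell-like cells 19.9% and 53.2%. Over all cells of the liver-labelled library, none of the 42 genes was past 2-fold at the high dose, beside 12.2% of all genes past 2-fold up and 6.15% down. None was past it in the spleen-labelled library either, beside 18.0% up and 3.00% down. At smaller sizes 21 genes were higher with an interval above 0 and 5 were lower in the liver-labelled library, beside 44.2% of all genes above 0 and 17.2% below, and 15 and 10 in the spleen-labelled library, beside 38.7% and 10.5%. Intervals narrow with the UMIs of a gene, so these counts also depend on level. The median log2 ratio of the 42 genes was 0.11 and 0.07, below that of all genes, 0.26 in both libraries.

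Licensing and fork genes rose most evenly at the high dose over all cells. Their summed level was 0.55 higher on the log2 scale (0.50 to 0.59) in the liver-labelled library and 0.42 (0.36 to 0.49) in the spleen-labelled library, against the all-gene median of 0.26. Intervals lay above 0 for 10 of 10 and 9 of 10 genes, beside 44.2% and 38.7% of all genes. Mcm6 rose from 29.5 CPM in the vehicle to 50.1 CPM at the high dose in the liver-labelled library, the largest rise of the list there (0.77 log2, 0.63 to 0.91). Mcm3 was at 37.2, 30.5 and 59.7 CPM and Mcm5 at 35.4, 28.5 and 48.8 CPM in the vehicle, low dose and high dose groups, so both were lowest at the low dose. Cdc6 rose by 0.66. Pcna was at 75.0, 67.4 and 98.1 CPM. Pcna of the spleen-labelled library was at 110, 111 and 142 CPM, Mcm3 at 53.4, 63.5 and 78.0 CPM and Mcm5 at 55.5, 58.4 and 75.0 CPM, so the low dose was not below the vehicle there.

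Of the other roles, Tk1 had the largest rise in the spleen-labelled library (29.7 to 50.3 CPM, log2 0.76) followed by Mcm2 (0.59) and Cenpf (0.55), while Rrm2 had the largest fall, from 158 to 105 CPM (log2 −0.59, −0.71 to −0.47), followed by Hmgb2 (−0.51) and Bub1b (−0.43). Rrm2 was at 101, 83.2 and 92.8 CPM and Rrm1 at 36.5, 29.4 and 45.2 CPM in the liver-labelled library. Rrm1 was at 53.2, 50.8 and 57.5 CPM in the spleen-labelled library, within its counting error at both doses. The largest falls in the liver-labelled library were those of Hmgb2 (−0.35), Nusap1 (−0.21) and Plk1 (−0.18, −0.38 to 0.01, which included 0). Stmn1 rose from 144 to 194 CPM there (0.42) and fell from 188 to 140 CPM in the spleen-labelled library (−0.42).

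The genes most used as proliferation markers differed by less over all cells. Mki67 was at 121, 101 and 134 CPM in the liver-labelled library and at 156, 124 and 152 CPM in the spleen-labelled library, so that it was lowest at the low dose in both. Top2a was at 145, 110 and 153 CPM and at 199, 171 and 257 CPM. Ube2c was at 139, 115 and 139 CPM and at 252, 194 and 249 CPM, and Birc5 (survivin) at 114, 97.1 and 112 CPM and at 165, 144 and 153 CPM. Cdk1 was at 47.3, 40.2 and 51.7 CPM and at 80.5, 72.3 and 86.2 CPM, and Ccnb2 at 59.5, 47.4 and 53.9 CPM and at 70.1, 68.7 and 71.9 CPM. The histone variant gene Cenpa was at 107, 97.4 and 96.2 CPM and at 155, 135 and 137 CPM. At the low dose no gene was past 2-fold over all cells (background 3.02% up and 2.53% down in the liver-labelled library, 6.75% and 1.63% in the spleen-labelled library), but 33 of 42 were lower with an interval below 0 and 0 higher in the liver-labelled library, where 13.2% of all genes were below 0 and 12.5% above. The median log2 ratio was −0.23 beside 0.00 for all genes. In the other library 18 were lower and 1 higher, beside 6.16% and 18.4% of all genes, and the median was −0.16 beside 0.11.

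Within T cell-like cells of the liver-labelled library, the G2/M genes were higher at the high dose. Of the 42 genes, 24 were past 2-fold up and 0 past 2-fold down, against a background of 4.45% of all genes up and 1.71% down, and the median log2 ratio was 1.04 beside 0.03 for all genes. Ube2c was at 7.17 CPM in the vehicle, 32.7 at the low dose and 70.0 at the high dose (log2 3.29, 2.67 to 3.98). Ccnb1, which activates Cdk1 for mitosis, was at 1.96, 7.19 and 18.5 CPM (3.24) from 6, 31 and 110 UMIs. Plk1 was at 1.30, 7.42 and 13.3 CPM (3.35) from 4, 32 and 79 UMIs. For these 3 genes the low dose lay between the vehicle and the high dose.

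The size of the rise differed between roles. Summed over roles, mitotic kinases, checkpoint and APC/C genes were 2.28 higher on the log2 scale, cyclins with Cdk1 1.72, centromere and spindle genes 1.06, deoxynucleotide synthesis genes 0.86 and chromosome structure genes 0.81, whereas licensing and fork genes were 0.24 higher (0.12 to 0.35). Pcna was at 86.7, 73.5 and 85.6 CPM (−0.02, −0.24 to 0.20), Mcm2 at 25.1, 19.3 and 25.8 CPM (0.04) and Cdt1 at 16.6, 19.7 and 17.3 CPM (0.06), the smallest ratios among genes with 50 UMIs or more, none with an interval below 0. Mcm3 was at 36.5, 27.6 and 48.5 CPM and Mcm5 at 23.8, 20.2 and 32.4 CPM, with log2 ratios of 0.41 and 0.44. Mki67 was at 42.4, 43.1 and 93.8 CPM (1.15, 0.87 to 1.43) and Top2a at 43.4, 47.8 and 101 CPM (1.22, 0.94 to 1.5), so that both moved at the high dose only. Birc5 was at 17.3, 35.5 and 75.2 CPM, Ccnb2 at 5.87, 10.7 and 31.4 CPM, Cdk1 at 6.52, 10.7 and 24.3 CPM and Cenpa at 32.9, 52.2 and 66.8 CPM. Rrm2 was at 22.5, 18.1 and 45.3 CPM (1.01) and Rrm1 at 25.1, 23.4 and 30.2 CPM (0.27, −0.13 to 0.67). Hmgb2 was at 338, 372 and 694 CPM (1.04) and Stmn1 at 70.8, 55.7 and 106 CPM (0.58). At the low dose 7 of 41 genes tested were past 2-fold up and 1 down (Ccne2, 16 against 4 UMIs), beside 2.88% and 1.99% of all genes.

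**Figure D4:**
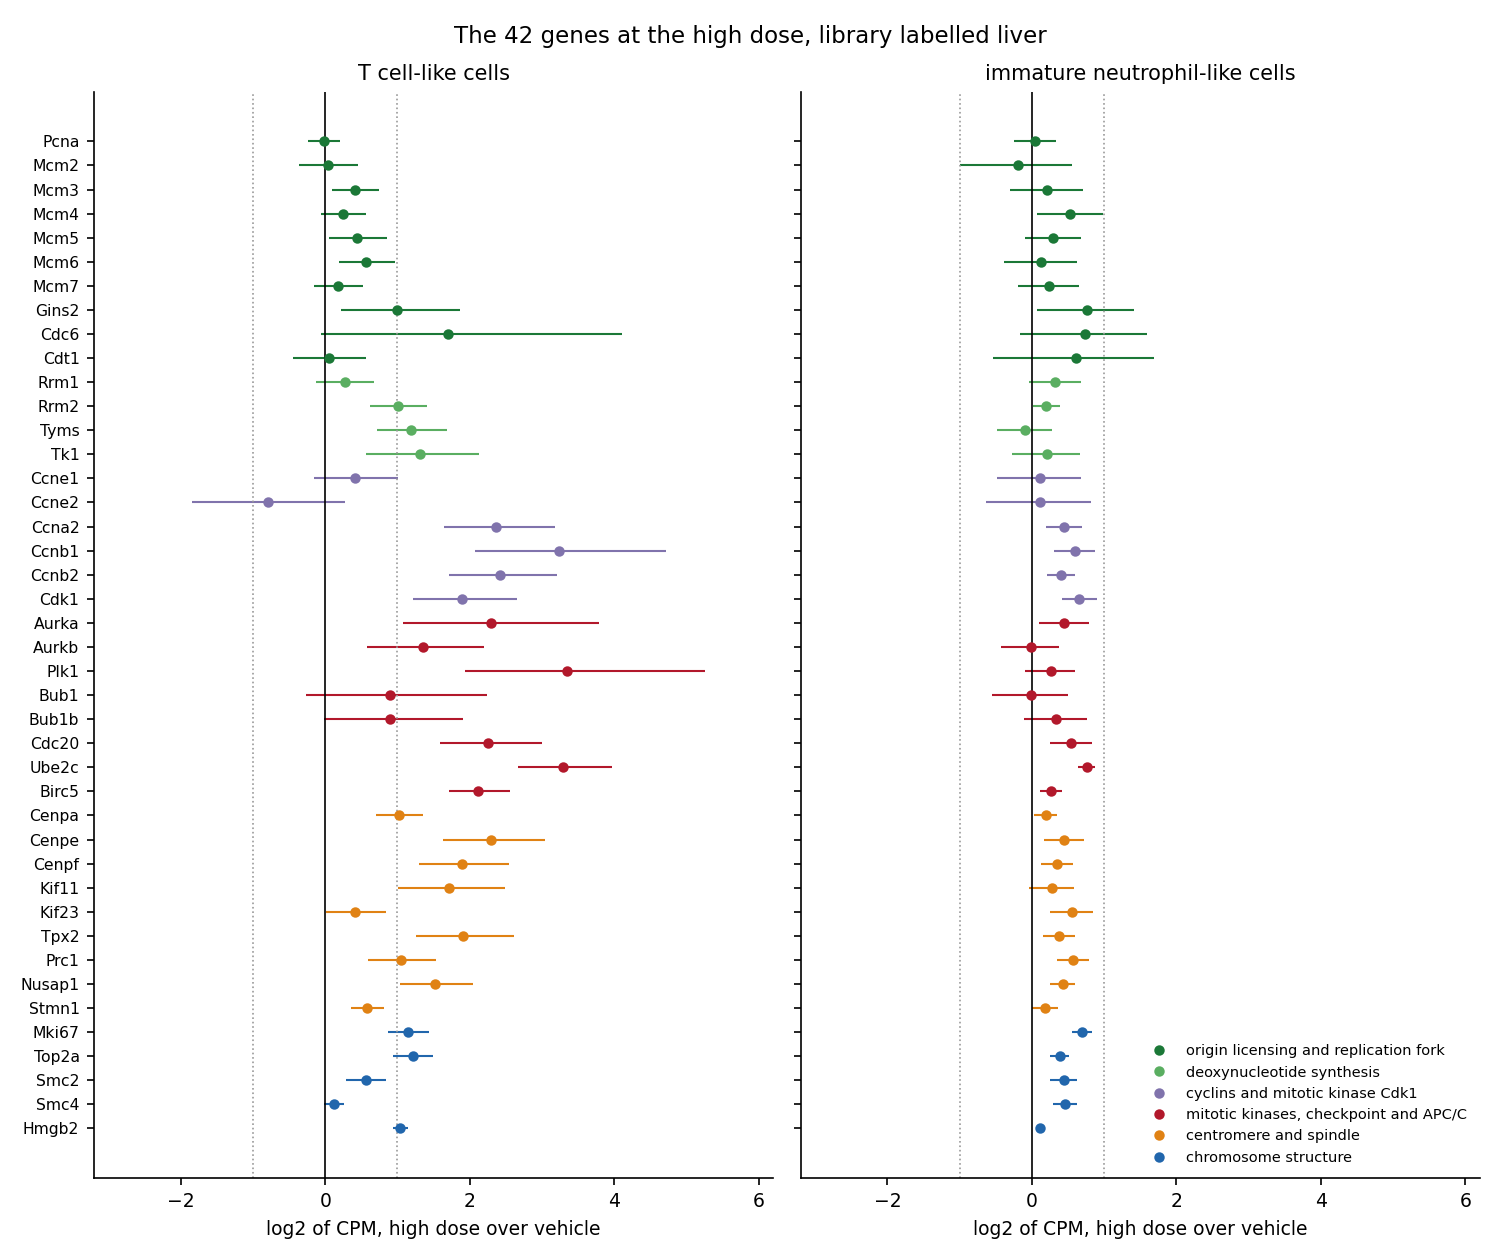
Log2 ratio of CPM, high dose over vehicle, of each of the 42 genes in T cell-like (left) and immature neutrophil-like cells (right) of the liver-labelled library, colored by role, with exact 95% intervals of counting error. Dotted lines mark 2-fold. In T cell-like cells 24 genes lie past 2-fold, most of them G2/M genes, and Pcna lies at −0.02, whereas no gene lies past 2-fold in immature neutrophil-like cells.

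A few cells carried much of this level in the library labelled liver. With Hmgb2 and Stmn1 left out, the other 40 genes summed to 900, 929 and 1587 CPM in the T cell-like cells of the 3 groups, and the 10 richest cells held 42.3%, 46.0% and 45.2% of those UMIs. Without those 10 cells the levels were 547, 523 and 920 CPM. Cells with 50 or more UMIs of the 40 genes numbered 7 of 596, 6 of 867 and 24 of 1033. The 10 richest cells had median depths of 15998, 15206 and 24214 UMIs against 4804, 4687 and 5054 for the class, and Scrublet called 0 of them doublets in each group. The Foxp3 cluster held most of the G2/M level, at 1357, 1906 and 2660 CPM, against 83.0, 73.2 and 236 CPM in the Cd8a cluster and 70.6, 79.2 and 81.2 CPM in the Cd4, Lef1 and Tcf7 cluster. Its G1/S level was 1165, 684 and 1114 CPM. With cells of that cluster only, 13 genes were past 2-fold up and 1 down, and without it 11 of 32 were past 2-fold up. When each cell counted equally, 16 were past 2-fold up and 1 down. The share of all genes past 2-fold was not computed for these alternatives, so their counts have no background. Markers of plasma cells, which can divide as plasmablasts, were at 30.3, 16.2 and 51.9 CPM in these cells and B cell markers at 26.7, 28.3 and 19.5 CPM, and their part in the result was not tested.

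The balance of the waves differed between groups. Of the UMIs of 16 G1/S and 22 G2/M genes in T cell-like cells of the liver-labelled library, 59.1% (56.9 to 61.3) were G1/S in the vehicle, 44.3% (42.6 to 46.1) at the low dose and 38.1% (37.0 to 39.2) at the high dose. In the Foxp3 cluster, 14.1%, 17.1% and 22.3% of the class, G1/S levels were 1165, 684 and 1114 CPM beside G2/M levels of 1357, 1906 and 2660 CPM. The Cd4, Lef1 and Tcf7 cluster had 231, 217 and 253 CPM beside 70.6, 79.2 and 81.2 CPM. The part of this cluster mix in the balance was not tested. As few as 32, 28 and 12 cells held 50% or more of the UMIs of the 40 genes. In T cell-like cells of the spleen-labelled library the values were 53.1% (47.2 to 59.0) in the vehicle, from 43 cells, 25.4% at the low dose and 37.8% at the high dose, so that the low dose was the lowest. Immature neutrophil-like cells had 17.9%, 18.6% and 15.4% in the liver-labelled library and 21.5%, 25.5% and 25.2% in the spleen-labelled library. Granulocyte progenitor-like cells had 37.0%, 40.4% and 42.2% in the liver-labelled library. Progenitor-like cells were richer in G1/S transcripts than immature neutrophil-like cells in every group of that library.

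**Figure D5:**
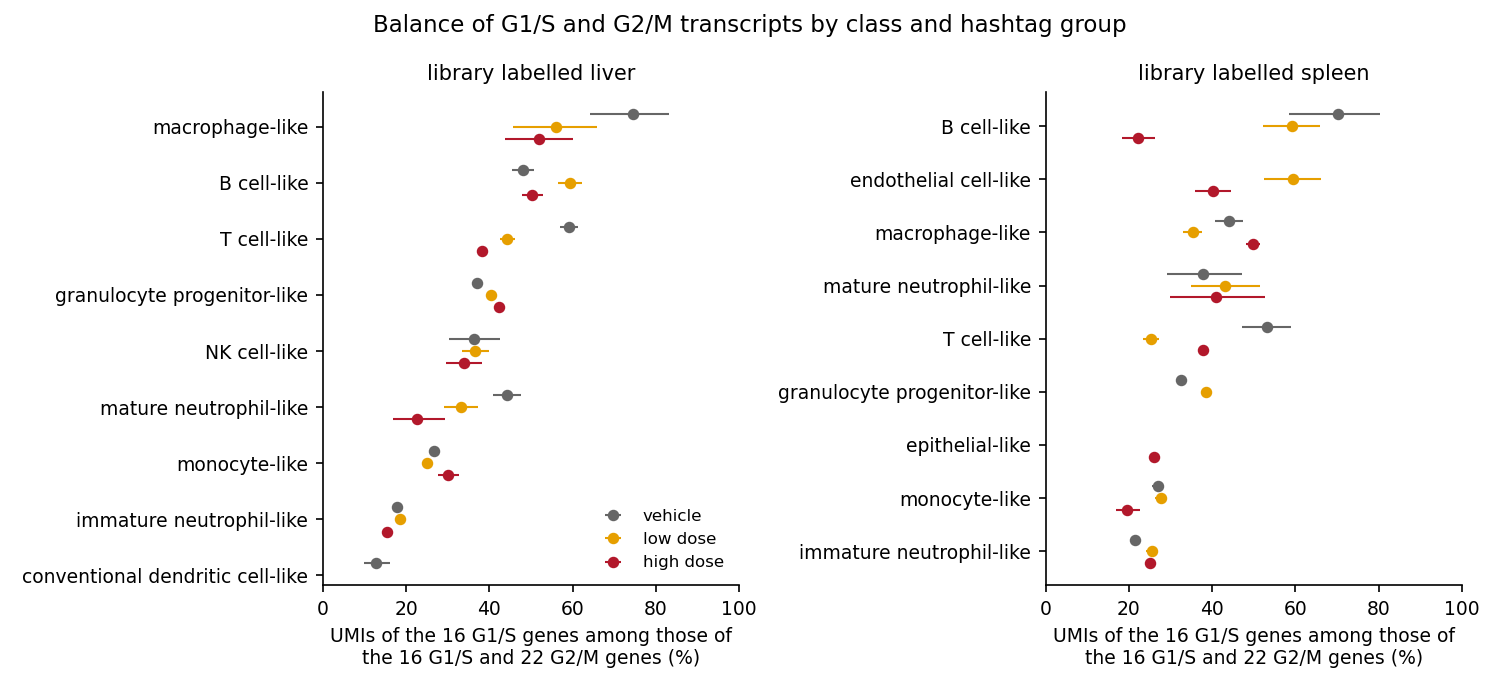
UMIs of the 16 G1/S genes as a percentage of those of the 16 G1/S and 22 G2/M genes, by class and hashtag group, with exact 95% intervals of counting error. Over T cell-like cells of the liver-labelled library the value is 59.1% in the vehicle, 44.3% at the low dose and 38.1% at the high dose.

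Within immature neutrophil-like cells of the liver-labelled library, the same wave was higher at the high dose, by less. No gene was past 2-fold (background 4.08% up and 3.91% down), but 24 of 42 had an interval above 0 and 0 below it, beside 12.2% and 3.21% of all genes, and the median log2 ratio was 0.34 beside 0.09. Ube2c was at 181, 165 and 307 CPM (0.76, 0.64 to 0.88), Mki67 at 135, 145 and 217 CPM (0.69, 0.55 to 0.83) and Cdk1 at 47.8, 50.3 and 75.5 CPM (0.66, 0.42 to 0.90). Gins2 had a ratio of 0.76 and Cdc6 one of 0.73 (−0.17 to 1.6) from few UMIs. The lowest ratios were those of Mcm2 (−0.19), Tyms (−0.09) and Aurkb (−0.02), all with intervals that included 0. Pcna was at 43.5, 45.7 and 45.0 CPM and Mcm5 at 22.7, 19.2 and 27.9 CPM. Top2a was at 173, 156 and 226 CPM, Hmgb2 at 2474, 2367 and 2666 CPM and Stmn1 at 107, 99.7 and 122 CPM. The Camp cluster was 75.2% of this class in the vehicle and 78.4% at the high dose. The 10 richest cells held 18.6% of the UMIs of the 40 genes in the vehicle and 46.1% at the high dose. These 40 genes were at 2055 and 2749 CPM, but at 1767 and 1816 CPM without those cells. Such 10 cells were a larger part of the 97 high dose cells than of the 339 vehicle cells.

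In this class of the spleen-labelled library, the 42 genes summed to 6207 CPM in the vehicle, 4715 at the low dose and 6868 at the high dose. Not every gene followed this order. At the low dose 29 of 42 genes had an interval below 0 and 0 above it, beside 12.0% and 4.13% of all genes, with a median log2 ratio of −0.55 beside −0.13 for all genes. Plk1 was at 54.0 CPM in the vehicle, 22.1 at the low dose and 48.4 at the high dose and was the 1 gene past 2-fold down at the low dose (−1.29, −1.79 to −0.80), beside 6.31% of all genes. The count was 15 with the leading hashtag of each cell, 14 after a filter on cells or without called doublets, and 10 when each cell counted equally. Except for the last, these counts came from cells clustered anew, so the class could hold other cells. The share of all genes past 2-fold was not computed for any of them. Scrublet called only 1 of 4830 barcodes of this library, so the count without called doublets says little about doublets. Ube2c was at 448, 249 and 480 CPM, Top2a at 222, 131 and 322 CPM and Mki67 at 170, 113 and 224 CPM. At the high dose 2 genes were past 2-fold up (background 5.20%) and 0 down (4.02%). They were Mcm2, at 15.7, 15.3 and 37.9 CPM (1.27, 0.62 to 1.94), and Mcm6, at 19.6, 21.2 and 43.1 CPM (1.14). Ccne2 (0.98), Mcm5 (40.7, 42.1 and 76.5 CPM, 0.91) and Pcna (75.1, 68.4 and 138 CPM, 0.88) followed. The lowest ratios there were those of Gins2 (−0.29), Plk1 (−0.16) and Cenpf (−0.15), all with intervals that included 0. The Camp cluster was 58.6% of the class in the vehicle, 46.1% at the low dose and 75.6% at the high dose.

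Granulocyte progenitor-like cells of the liver-labelled library had lower G2/M and higher licensing levels at the high dose. No gene was past 2-fold (background 10.9% up and 2.33% down), 17 had an interval below 0 and 4 above it, beside 7.07% and 21.9% of all genes, and the median log2 ratio was −0.12 beside 0.21. Nusap1, which bundles spindle microtubules, was at 185, 115 and 110 CPM (−0.75, −0.96 to −0.54), Plk1 at 63.9, 54.6 and 45.9 CPM (−0.48) and Ccnb2 at 138, 132 and 99.5 CPM (−0.47). Mcm6 was at 127, 136 and 169 CPM (0.42, 0.21 to 0.63), Stmn1 at 508, 516 and 658 CPM (0.37) and Mcm3 at 143, 132 and 184 CPM (0.36). The hemoglobin-bearing cells lie in this class, and their part in the result was not tested.

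Macrophage-like cells of the spleen-labelled library had 9 genes past 2-fold up and 0 down at the high dose, against 9.08% and 3.29% of all genes. Ccnb2 was at 7.67, 30 and 25.1 CPM (1.71, 0.50 to 3.21), Mcm6 at 15.3, 18.1 and 48.5 CPM (1.66, 0.80 to 2.65) and Mcm2 at 17.9, 13.2 and 43.3 CPM (1.27). Mcm5 was at 30.7, 36.9 and 73.5 CPM (1.26). The lowest ratios were those of Cdk1 (−0.39), Smc4 (−0.26) and Birc5 (−0.13), all with intervals that included 0. At the low dose 4 were past 2-fold up and 0 down, beside 6.51% and 3.93% of all genes. With MULTIseqDemux groups 21 were past 2-fold up at the high dose, where the share of all genes was not computed. In the hashtag groups the 10 richest cells held 79.8%, 69.8% and 48.7% of the UMIs of the 40 genes.

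Monocyte-like cells could be compared at the low dose only, where no gene was past 2-fold in either library (background 2.93% up and 3.95% down in the liver-labelled library, 4.41% and 3.81% in the spleen-labelled library). In the liver-labelled library 23 of 42 genes had an interval below 0 and 1 above it, beside 6.53% and 7.51% of all genes, and in the spleen-labelled library 16 and 0, beside 5.78% and 7.41%. The median log2 ratios were −0.30 and −0.29, and those of all genes 0.01 and 0.02. Top2a was at 328 CPM in the vehicle and 213 at the low dose in the liver-labelled library, and at 323 and 224 CPM in the spleen-labelled library. Stmn1 was at 342 and 215 CPM and at 232 and 165 CPM. These genes were lower at the low dose in both libraries.

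B cell-like cells of the liver-labelled library had 5 genes past 2-fold up and 0 down at the high dose (background 2.77% and 4.37%), with Birc5 at 14.2 and 28.5 CPM (1.00, 0.32 to 1.71) and Cenpe (0.91) and Mcm4 (0.87) next, and Cenpa lowest, at 66.4 and 39.9 CPM (−0.74, −1.17 to −0.31). At the low dose it was 1 up and 10 down (background 3.12% and 3.95%). These counts depended on the cluster led by Vpreb3 and Vpreb1. Its 47 vehicle cells had 1063 list UMIs, at 6042 CPM, against 764 CPM in the largest B cell-like cluster of the vehicle. Without that cluster 10 of 37 genes tested were past 2-fold up and 0 down at the low dose. At the high dose 23 of 40 were up and 0 down, so the direction at the low dose turned. Leaving out a list-rich cluster of vehicle cells lowers the list level of the vehicle, so higher ratios follow from that choice. The share of all genes past 2-fold was not computed without it. The 10 richest cells held 48.7%, 39.0% and 66.1% of the UMIs of the 40 genes in the vehicle, low dose and high dose groups, and 148 of 151 cells of a cluster led by Pmepa1 were from the low dose. Mature neutrophil-like cells had 11 of 30 genes tested past 2-fold down at the high dose and 1 up, where 37.7% of all genes were down and 2.55% up, so the share of falls was near the background. Vehicle cells of this class lay mostly in clusters led by Il1b and Igfbp6 and high dose cells in a deeper cluster led by Stfa3 and Stfa2.

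The remaining comparisons are given by their counts. At the low dose, no gene was past 2-fold in granulocyte progenitor-like cells of the liver-labelled library (background 3.46% up and 3.04% down), where 14 of 42 had an interval below 0 and 1 above it (4.75% and 4.69% of all genes), or in its immature neutrophil-like cells (3.43% and 2.13%), where 8 had one below 0 and 0 above it (5.50% and 9.77%). In granulocyte progenitor-like cells of the spleen-labelled library, 1 was up and 0 down (5.28% and 3.91%). No gene was past it upward in immature neutrophil-like cells of that library, beside 3.04% of all genes. Macrophage-like cells of the liver-labelled library had 8 genes with enough UMIs at the low dose and 0 past 2-fold (9.76% and 7.46%), and 12 at the high dose with 6 up (7.08%) and 0 down (15.2%). There, 1 high dose cell held 50% or more of the UMIs of the 40 genes. Its mature neutrophil-like cells had 14 of 31 down at the low dose and 0 up (5.86% and 2.15%). Of these cells, 6 of 1157 in the vehicle and 0 of 936 at the low dose had 10 or more UMIs of the 40 genes. The 40 genes were at 186 and 146 CPM, and at 151 and 139 CPM without the 10 richest cells of each group. Scrublet called 4 and 3 of those richest cells doublets. In mature neutrophil-like cells of the spleen-labelled library, 9 genes could be compared, of which 1 was up and 3 down at the low dose (6.02% and 4.96%) and 0 up and 3 down at the high dose (5.89% and 15.7%). Cells of unnamed clusters had 7 of 38 up at the low dose (13%) and 0 down (7.03%), and 14 of 39 up at the high dose (15.7%) and 1 down (7.43%), in the liver-labelled library. Those of the spleen-labelled library had 21 of 34 up at the low dose (13.2%) and 25 of 38 up at the high dose (8.19%), with 0 down in both (4.53% and 12.5%), although their thinned cycling shares of 8.65%, 15.1% and 9.23% had differences from the vehicle that included 0.

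The rest of the pathway was read from 126 further genes in 4 lists. Among other DNA replication genes, 26 of 34 were higher at the high dose over all cells of the liver-labelled library and 0 lower. The shares of all genes there were 44.2% and 17.2%. In the spleen-labelled library 15 were higher and 3 lower, near the 38.7% and 10.5% of all genes. The summed levels were 0.34 and 0.14 higher on the log2 scale, the second below the median ratio of all genes given above. Dut, which clears dUTP, was at 92.6 and 142 CPM (vehicle and high dose) and Nasp, a histone chaperone, at 64.2 and 94.6 CPM in the liver-labelled library, whereas Pclaf was at 187 and 182 CPM with an interval that included 0. Slbp, the binding protein of histone mRNA, was at 86.8 and 97.7 CPM and Rfc2, a clamp loader subunit, at 63.1 and 76.1 CPM. In T cell-like cells of that library 12 of 34 were higher and 0 lower, where 8.22% and 4.85% of all genes were.

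Other genes of mitosis showed the T cell-like pattern too. Of 62 genes, 51 had an interval above 0 and 40 were past 2-fold up in T cell-like cells of the liver-labelled library at the high dose. The shares of all genes were 8.22% and 4.45%. Aspm (spindle pole) was at 0.652 and 8.06 CPM (log2 3.63, 1.70 to 6.71) and Sgo2a (centromere cohesion) at 2.28 and 10.6 CPM (2.21). Cdkn3, of the kinase inhibitor list, was at 1.30 and 10.4 CPM (3.00, 1.57 to 4.92). Among the further genes of all lists, ratios below 0 in these cells included those of Lin54 (−0.26), Clspn (−0.24) and Pola1 (−0.20). The intervals of these included 0. Over all cells, H2afz was at 1341 and 1193 CPM and Hist1h1b at 279 and 245 CPM in the liver-labelled library, and the tubulin genes Tubb5 (248 and 367 CPM), Tuba1b (179 and 280 CPM) and Tubb4b (168 and 224 CPM) were higher, although these have near-identical copies that could share reads. Hist1h1b fell from 307 to 169 CPM (−0.86) and Hist1h2ae from 56.7 to 33.7 CPM (−0.75) over all cells of the spleen-labelled library.

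Regulators of cell cycle entry held the largest rises over all cells. In the liver-labelled library Ccnd2 was at 90.9 and 236 CPM (log2 1.37) and Cdk6 at 28.6 and 74.5 CPM (1.38) over all cells, the largest rises among those of the 126 genes with 50 UMIs or more, together with the uracil glycosylase gene Ung (1.05). Within T cell-like cells, a class with 19.9% of the vehicle and 53.2% of the high dose cells, Ccnd2 was at 536 and 534 CPM. Ccnd3 was at 351 and 311 CPM, Cdk4 at 56.0 and 102 CPM and Tfdp1 at 70.5 and 59.6 CPM. In the spleen-labelled library the largest rises were those of Ccnd1, at 31.6, 58.1 and 269 CPM (3.09), Mybl1 (2.08) and Cdkn2a (1.87). Of the Ccnd1 UMIs at the high dose there, 2299 of 2852 lay in epithelial-like cells, in which it was at 843, 1072 and 1128 CPM.

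Of the kinase inhibitors, Cdkn1a (p21) fell from 20.1 to 8.83 CPM (log2 −1.19, −1.46 to −0.93) and Cdkn2d (p19) from 239 to 168 CPM (−0.51) over all cells of the liver-labelled library, followed by Arhgap11a of the mitosis list (−0.32). Within its mature neutrophil-like cells Cdkn1a was at 30 and 3.85 CPM and Cdkn2d at 291 and 275 CPM, and within immature neutrophil-like cells Cdkn1a was at 8.51 and 7.05 CPM. Cdkn1b was at 107 and 99.3 CPM, Cdkn3 at 54.0 and 44.2 CPM and Cdkn2c at 14.1 and 12.5 CPM. In the spleen-labelled library Cdkn2d fell from 207 to 115 CPM (−0.84), and Cdkn1a was at 99.6 and 107 CPM (0.11, −0.03 to 0.24).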

How the data were processed

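Cells of 2 tissues from mice with 4T1 liver metastases were profiled by droplet scRNAseq in 2 libraries, each with 3 hashtag groups. The authors deposited raw UMI counts per gene and per hashtag for each barcode. Their processing notes name Cell Ranger 6.0.0, Seurat and mm10, whereas the matrix headers name Cell Ranger 5.0.0. Total counts per hashtag group ran from 7130127 to 26508853 UMIs.

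From these counts, cells were assigned to hashtag groups with HTODemux in Seurat 5.3.0 (R 4.3.3), and cells with no or more than 1 hashtag were left out. Each library was clustered after SCTransform (sctransform 0.4.2) on 30 principal components at resolution 0.8, with the 42 genes and the other cell cycle and histone genes left out of the variable features. A cluster was named when 3 or more markers of a class had a log2 fold of 1 or more (pseudocount 10 CPM) and 20% of its cells. Barcodes with 2 hashtags stood for doublets in the main analysis, and Scrublet (scanpy 1.11.5) was an alternative. It called 1 of 4830 barcodes in the spleen-labelled library and so did not work there. No cell was removed for its mitochondrial share, which reached 98.9% and 99.0%, except under the alternative with a filter.

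A cell was called cycling with 3 or more list UMIs after thinning to 1000 UMIs. Shares have exact Clopper-Pearson intervals, and differences of shares have limits combined from both intervals. Levels are CPM of summed UMIs per class and group, and ratios have exact conditional binomial intervals. Classes with 50 cells or more per group and genes with 10 UMIs or more were compared, and a gene was called past a log2 ratio of 1 in either direction. All intervals cover counting error only, and UMIs of 1 cell are not independent. Interval coverage and the recovery of set ratios were tested on data simulated as independent counts. The intervals assume such counts, so this could not test the effect of UMIs gathered in few cells.

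Promoters came from a RefSeq table on GRCm38.p6. The genes named were Mki67, Top2a, Pcna, Mcm5, Hmgb2 and Stmn1, the 2 with most UMIs in each role, the 3 largest rises and falls with 50 UMIs or more in each class described, the 5 with most UMIs in each list of other cell cycle genes and the 3 largest rises and falls among these. The members and lists were chosen with earlier results of these data known. Python 3.11.15, numpy 2.4.6, scipy 1.17.1, pandas 2.3.3 and matplotlib 3.10.9 were used.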

Additional observations from a re-analysis of the deposited data

Results flagged for a closer look

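For 3 of the 6 roles, the summed levels of the libraries lay on opposite sides of the vehicle, with intervals that excluded 0, while the difference between the libraries itself was not tested. Centromere and spindle genes at the high dose had a log2 ratio of 0.065 (0.029 to 0.10) over all cells of the liver-labelled library and of −0.11 (−0.17 to −0.064) in the spleen-labelled library. Deoxynucleotide synthesis genes at the high dose had 0.081 (0.019 to 0.14) and −0.093 (−0.17 to −0.010). Licensing and fork genes at the low dose had −0.17 (−0.22 to −0.12) and 0.12 (0.05 to 0.18). The libraries also differed in the classes they held, and the part of this in the differences was not tested.

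Barcodes of the liver-labelled library without a hashtag call, which no comparison used, had a cycling share of 28.3% (23.8 to 33.1), or 106 of 375 thinned cells, above the 19.6% of the vehicle. Of 1273 such cells in the spleen-labelled library, 167 were cycling, or 13.1%. The high dose hashtag led in 1125 of them, of which 13.7% (11.7 to 15.8) were cycling. Of the 849 thinned cells called high dose there, 25.0% were cycling, so that share covers only the barcodes with a hashtag call.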

How the results depend on the processing

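No paired analysis was possible because each group was 1 pooled sample per library. The high dose difference in the cycling share of the liver-labelled library, −4.73 points, was −10.6 after thinning to 2000 UMIs, −11.2 without thinning, −7.76 with 2 or more list UMIs, −0.192 with 5 or more and −1.87 with the class makeup of the vehicle held fixed, and it turned to 2.18 without Hmgb2 and Stmn1 and to 3.26 with other cell cycle genes. In the spleen-labelled library, −1.11 became −6.48 with MULTIseqDemux, −7.50 with the leading hashtag, −5.85 after thinning to 2000 UMIs and 6.49 without thinning. It turned to 1.37 without Hmgb2 and Stmn1. With the class makeup of the vehicle held fixed, the shares there were 26.1% in the vehicle and 28.3% at the high dose. The direction thus turned there too. Classes above mature neutrophil-like cells, 3 in the liver-labelled library, were 5 with the leading hashtag, 9 without Hmgb2 and Stmn1, 7 with other cell cycle genes and 5 at resolution 1.6. In the spleen-labelled library, 5 became 8 with the leading hashtag and 8 with other cell cycle genes.

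Counts of genes past 2-fold moved as follows, and the share of all genes past 2-fold was not computed for these alternatives. With the mean over cells, 1 gene was up over all cells of the liver-labelled library at the high dose and 2 in its immature neutrophil-like cells. In those cells the leading hashtag gave 5 down at the low and 3 down at the high dose, and removal of Scrublet doublets 3 down at the low dose and 1 up and 2 down at the high dose. In T cell-like cells at the low dose (7 up, 1 down) the mean over cells gave 2 up and 2 down, a minimum of 1 UMI 2 down and of 50 UMIs 4 up and 0 down, the Foxp3 cluster alone 5 down, and the class without it 0 in either direction. At the high dose (24 up, 0 down) the mean over cells gave 1 down, the Foxp3 cluster alone 13 up and 1 down, and the class without it 11 up.

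In immature neutrophil-like cells of the spleen-labelled library, the 1 gene down at the low dose became 15 with the leading hashtag, 14 with a filter on cells (200 genes or more and under 10% mitochondrial UMIs), 14 without Scrublet doublets and 10 with the mean over cells. The 2 up at the high dose became 0 up and 1 down with MULTIseqDemux, 0 with the leading hashtag, 1 with the filter, 1 without Scrublet doublets and 7 with the mean over cells. In macrophage-like cells at the low dose (4 up, 0 down) MULTIseqDemux gave 12 up and 3 down, the leading hashtag 2 down, the filter 2 up and 2 down, the mean over cells 7 up and 1 down, a minimum of 1 UMI 1 down and of 50 UMIs 2 up. At the high dose (9 up, 0 down) MULTIseqDemux gave 21 up, the filter 2 down and the mean over cells 17 up. Cells were clustered anew under the hashtag, filter and doublet alternatives, so a class could hold other cells. In B cell-like cells of the liver-labelled library, the counts of 1 up and 10 down at the low dose became 10 up and 0 down, and the 5 up at the high dose became 23, without the cluster led by Vpreb3 and Vpreb1. Of the recomputed differences and counts, 213 counted as unmoved, 59 as moved and 2 as reversed. Each unmoved value lay within the interval of the main difference, in which the sign could turn, or at or within 1.5 times the main count. Of the recomputed shares of single classes, 152 stayed within the interval of the main share and 106 moved. Those that moved were 20 without thinning (0 unmoved), 16 after thinning to 2000 UMIs (4 unmoved), 16 with 2 or more list UMIs (4 unmoved) and 12 without Hmgb2 and Stmn1 (8 unmoved). The fixed makeup and the Foxp3 and Vpreb splits were chosen after seeing the data. Precision was limited by the 1 pool per group and by the few cells that carried most list UMIs.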
